A study of Arabidopsis thaliana with 4 samples.

Results

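Leaf senescence is the last stage of a leaf's life, in which chloroplasts are dismantled and their nitrogen and carbon are exported to growing parts of the plant. NAC transcription factors such as ORE1 and NAP switch on senescence-associated genes (SAG genes), and the green pigment is removed by an ordered pathway: NYC1 and its partner NOL reduce chlorophyll b towards chlorophyll a, SGR1 takes the magnesium out, PPH removes the phytol tail and PAO opens the ring. Several of these genes also answer to darkness, oxidative stress, abscisic acid or pathogens.

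The 10 Arabidopsis thaliana genes described here were set by their loci. They are the senescence markers SAG13, SAG12, SEN1 and SAG29, the immune and senescence gene SAG101, the transcription factor genes ORE1 and NAP, and the chlorophyll breakdown genes NYC1, SGR1 and PAO. Of the 10, 9 were among the 23174 genes with values. SAG12 (AT5G45890), a cysteine protease gene that marks age-dependent senescence, was missing from the rows and was not analysed here.

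The comparison asked how gene expression in atino80-5, a mutant of the chromatin remodelling ATPase gene INO80, differs from wild type in long days. Expression was read by RNA-seq, from stranded libraries of polyA RNA, in seedlings that were 14 days old and grown on plates at 22 °C with 16 h of light and 8 h of dark. There were 2 libraries of wild type (WT) and 2 of atino80-5, with no further treatment or group, and the labels used here give neither the ecotype nor the nature of the atino80-5 lesion. Nothing in the labels says whether replicates were separate cultures: p-values here reflect the spread among these libraries only, and it may be technical. In whole seedlings, fewer cells of a type and less RNA per cell cannot be told apart.

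The libraries held between 13068214 and 18406709 reads counted to genes. Levels are given in FPKM, here reads scaled to gene length and to a size factor per library, not to total reads. INO80 itself stood at 4.28 and 4.54 FPKM in WT and at 2.72 and 3.13 FPKM in atino80-5, a difference that did not pass the test (limma adjusted p = 0.117). Markers of the seed, root and leaf were read beside the results. All 6 tested seed markers rose, of 10 with values, and they passed the minimum level only through their atino80-5 values. Of 8 root markers, 2 fell, none rose and 6 did not pass: IRT1, the iron transporter gene, fell from 31.5 ± 1.00 FPKM in WT to 9.75 ± 0.268 FPKM in atino80-5 (SD, n = 2, limma adjusted p = 0.00523) and FRO2, the ferric reductase gene, from 6.72 ± 0.532 FPKM to 2.14 ± 0.373 FPKM (limma adjusted p = 0.0104). The root markers summed to 408 and 461 FPKM in WT and to 551 and 662 FPKM in atino80-5, a sum carried by PYK10. PYK10 alone, named after its values were seen, stood at 323 and 372 FPKM in WT and at 500 and 601 FPKM in atino80-5. It did not pass in limma (adjusted p = 0.129). The authors' deposited DESeq2 table called it raised (adjusted p = 0.0196) and 2 other root markers lowered. Of the 8, libraries did not overlap in 1 with atino80-5 higher (PYK10) and in 3 with it lower, against 33.4% and 28.8% of all tested genes. None of the 12 leaf photosynthesis markers passed in limma, where 1 had an unadjusted p under 0.05, against 4761 of all 17642 tested genes. The authors' deposited table called 2 of them raised and 1 lowered, against 5.85% and 3.65% of its genes with an adjusted p. In 7 of the 12 the libraries of the genotypes did not overlap, in 5 with atino80-5 higher and in 2 with it lower. Over all tested genes the share was 62.2%, with 33.4% higher and 28.8% lower. Their sum, carried by the Rubisco small subunit genes, was 78239 and 64457 FPKM in WT and 64573 and 86051 FPKM in atino80-5. The part of the tissue markers in the results was not tested.

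Of the 9 genes with values, SAG13 fell, SAG29 rose and 7 did not pass the test. All 9 averaged 1 FPKM or more across the 4 libraries, the minimum for testing, which SAG13 met through its WT values. The test was limma on log2(FPKM + 1) with Benjamini-Hochberg adjusted p under 0.05 over 17642 genes, of which 5.41% were called, 2.99% as raised and 2.42% as lowered. The median log2 difference, atino80-5 minus WT, was -0.01 over the 9 genes and 0.03 over all tested genes. In 6 of the 9 genes the libraries of the genotypes did not overlap, in 4 with atino80-5 higher and in 2 with it lower, against 62.2% of all tested genes. The authors' deposited DESeq2 table likewise had 1 of the 9 raised and 1 lowered at an adjusted p under 0.05, against 9.5% of its genes with an adjusted p (5.85% raised and 3.65% lowered).

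**Figure D1:**
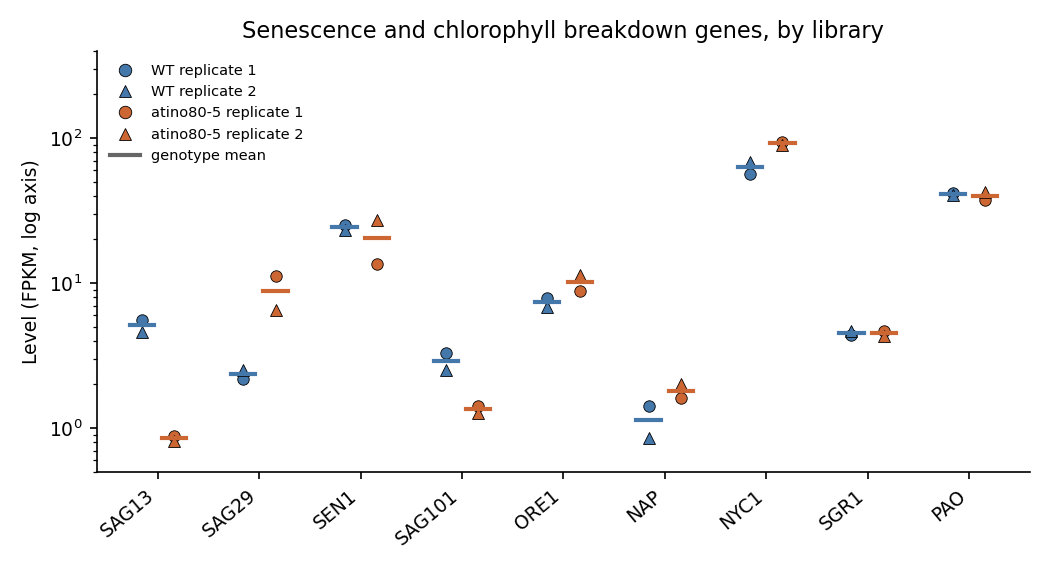
Level of each gene in each library, in FPKM on a log axis, with WT in blue and atino80-5 in orange, circles for replicate 1, triangles for replicate 2 and bars for the genotype means. SAG13 and SAG29 have the widest gaps between genotypes, and SEN1 has the widest gap between the atino80-5 replicates.

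The genes stood at different levels. Per length, NYC1 was highest, with a mean of 77.2 FPKM over the 4 libraries, followed by PAO at 40.6 FPKM and SEN1 at 22.4 FPKM, and the ranges of these 3 over libraries did not overlap. Below them came ORE1 at 8.75, SAG29 at 5.59, SGR1 at 4.52, SAG13 at 2.98, SAG101 at 2.13 and NAP at 1.47 FPKM. From ORE1 down, each gene overlapped the next in its range over libraries, so neighbours in this order are not separated by the spread. Genes further apart can be: ORE1 lay wholly above SGR1, SAG13, SAG101 and NAP, and SGR1 wholly above SAG101 and NAP. The length behind the FPKM included introns, which understates intron-rich genes: SAG29 was counted over 2265 bases with 1351 bases of exon in the reference annotation, and ranked just above ORE1 per exon length. NYC1 lay at percentile 93.9 of the tested genes and NAP at percentile 6.35.

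SAG13 (AT2G29350, chromosome 2) encodes a short-chain alcohol dehydrogenase and is used as an early marker of senescence that also responds to oxidative stress. Its level was 5.60 and 4.61 FPKM in WT, from 137 and 152 reads, and 0.886 and 0.811 FPKM in atino80-5, from 17 and 19 reads. Both atino80-5 libraries lay far below both WT libraries, and the replicates of each genotype were close. The mean fell 6.02-fold, from 5.11 ± 0.703 to 0.849 ± 0.0525 FPKM (SD, n = 2), with a log2 difference of -1.72 (SE 0.16, 95% interval -2.10 to -1.34, limma adjusted p = 0.00508). The authors' deposited table gave it a log2 fold change of -2.59 and an adjusted p of 2.38e-07, on a scale without a pseudocount.

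SAG13 sits in a run of related dehydrogenase genes, most of them on the same strand, and none of its tested neighbours fell. AT2G29340, the gene next to it on one side, rose, from 15.0 and 19.1 FPKM in WT to 47.0 and 52.8 FPKM in atino80-5. Its mean rose 2.92-fold (log2 difference 1.50, SE 0.18, limma adjusted p = 0.0104), so that adjacent genes of the run changed in opposite directions. AT2G29360, next to SAG13 on the other side, stood at 28.0 and 25.5 FPKM in WT and at 15.4 and 21.6 FPKM in atino80-5, lower in both libraries but short of the threshold (adjusted p = 0.164).

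Of the 10 listed neighbours with values, 9 were tested, 1 rose and 8 did not pass, with a median log2 difference of 0.07. Limma called 2.99% of all tested genes as raised and 2.42% as lowered. The tropinone reductase gene TRI was at 2.92 ± 0.125 FPKM in WT and 2.04 ± 0.310 FPKM in atino80-5, and AT2G29370 at 2.50 ± 0.177 and 1.64 ± 0.404 FPKM (SD, n = 2). AT2G29300 and AT2G29310 were higher in both atino80-5 libraries, at 1.70 and 2.25 times the WT mean, with adjusted p-values of 0.0626 and 0.0811. AT2G29310, at 183 and 106 FPKM in atino80-5, was the most abundant gene of the run there. AT2G29170 was at 11.8 ± 0.0675 FPKM in WT and 17.6 ± 6.89 FPKM in atino80-5, and AT2G29290 and AT2G29320 differed by -0.03 and 0.07 on the log2 scale. Without atino80-5 replicate 2, 5 more neighbours passed, AT2G29170, AT2G29300 and AT2G29310 as raised and TRI (adjusted p = 0.0426) and AT2G29360 (0.00722) as lowered, in a fit that called 39.1% of all genes. AT2G29310 also passed without atino80-5 replicate 1 (0.0418) and with voom on the recovered reads (0.0402), AT2G29300 after quantile normalisation (0.0460), and both with the replicate block (0.0420 for AT2G29300 and 0.0210 for AT2G29310). The authors' deposited table called AT2G29310 raised, with an adjusted p of 0.000455, and AT2G29340. AT2G29260, below the minimum level, had 36 and 35 reads in WT and 12 and 13 reads in atino80-5.

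These genes are related in sequence, so reads of one could be assigned to another. The longest stretch of transcript that SAG13 shares letter for letter with any other locus in the reference annotation is 50 bases, with AT2G29150, which was not analysed here. With AT2G29340, the neighbour that rose, it is 25 bases, and with AT2G29360 it is 30 bases. The sources used here do not give the read length or how reads with several matches were counted, and their part in the values was not tested.

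**Figure D2:**
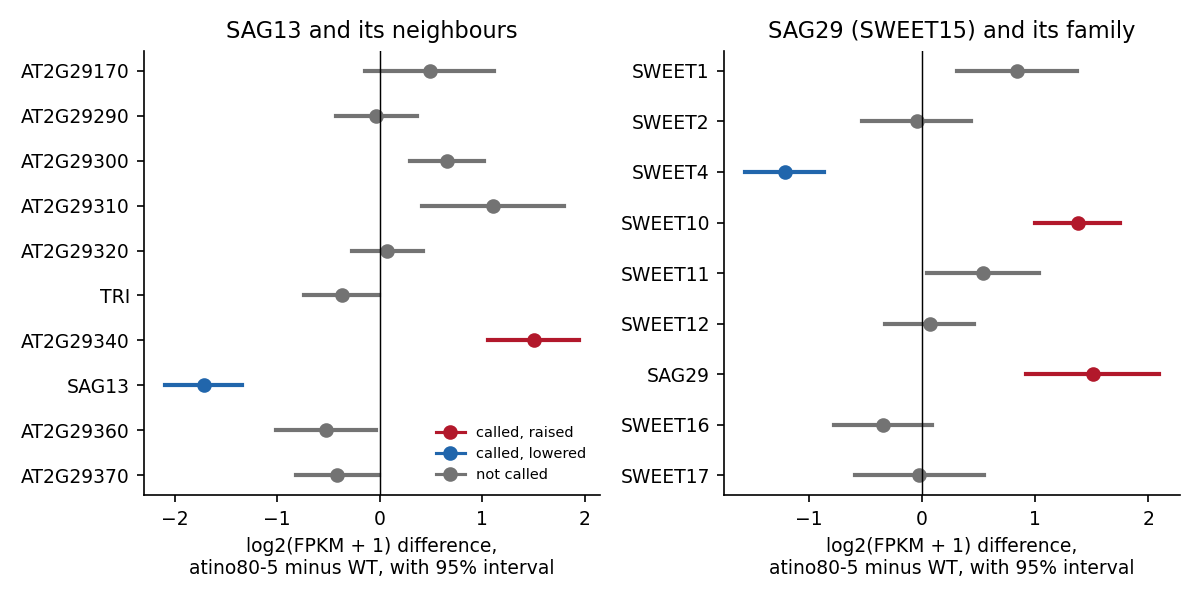
Log2(FPKM + 1) difference, atino80-5 minus WT, with limma's 95% interval, for SAG13 and the tested neighbours in chromosome order (left) and for SAG29 and the tested SWEET genes (right). Red marks called rises, blue called falls and grey genes that did not pass; SAG13 lies at -1.72 directly beside AT2G29340 at 1.50.

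By distance between their mean-centred log2(FPKM + 1) values over the 4 libraries, the genes most like SAG13 among all tested genes were the glycosyltransferase gene UGT73B5 (distance 0.08) and the iron-regulated transcription factor genes bHLH38 (0.08) and bHLH39 (0.09). UGT73B5 was at 32.1 and 27.0 FPKM in WT and 8.50 and 7.54 FPKM in atino80-5. Only through WT did bHLH38 (mean 3.33 FPKM in WT and 0.333 FPKM in atino80-5) and bHLH39 (5.30 and 0.931 FPKM) reach the minimum level. The likeness rests on 4 libraries of 2 genotypes, and the shared fall follows from choosing these genes by likeness over the same libraries.

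SAG29 (AT5G13170, chromosome 5), also named SWEET15, encodes a sugar transporter of the plasma membrane that is induced in senescing leaves and by osmotic stress and is also expressed in developing seeds. Its level was 2.20 and 2.53 FPKM in WT, from 74 and 115 reads, and 11.1 and 6.50 FPKM in atino80-5, from 295 and 210 reads. Both atino80-5 libraries were above both WT libraries, and they differed from each other more than the WT libraries did. The mean rose 3.73-fold, from 2.36 ± 0.236 to 8.83 ± 3.28 FPKM (SD, n = 2), with a log2 difference of 1.51 (SE 0.24, 95% interval 0.92 to 2.09, limma adjusted p = 0.0232). The authors' deposited table gave it a log2 fold change of 1.90 and an adjusted p of 1.01e-06.

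Seed markers moved with the same genotype. They summed to 0.901 and 0.799 FPKM in WT and to 58.5 and 68.2 FPKM in atino80-5. Of the 10, 6 had no read in either WT library, among them SESA5, which had 144 and 149 reads in atino80-5. The cruciferin gene CRA1 was at 0.390 ± 0.0790 FPKM in WT and at 25.0 ± 5.28 FPKM in atino80-5 (SD, n = 2). The other called seed genes with the largest differences were CRC, a cruciferin gene, at 6.87 and 13.8 FPKM in atino80-5, and the oleosin gene OLEO2, at 7.81 and 3.38 FPKM. Within atino80-5, SAG29 was higher in replicate 1, as were 4 of the 10 seed markers, OLEO2 and SESA5 among them, while 6 were higher in replicate 2. The part of seed-type expression in the level of SAG29 was not tested.

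Other SWEET genes went both ways. Of 16 listed besides SAG29, 13 had values and 8 were tested, with 1 raised, 1 lowered, 6 that did not pass and a median log2 difference of 0.02. SWEET10, a sugar transporter gene, rose from 2 and 7 reads (0.138 ± 0.0867 FPKM) in WT to 42 and 46 reads (1.95 ± 0.148 FPKM) in atino80-5 (SD, n = 2, limma adjusted p = 0.00821), and reached the minimum level only through atino80-5. SWEET4 fell 2.96-fold, from 6.10 ± 0.236 to 2.06 ± 0.206 FPKM (limma adjusted p = 0.00931). SWEET11 and SWEET12, which load sucrose into the phloem of leaves, named after their values were seen, did not pass: SWEET11 was at 79.0 ± 8.14 and 116 ± 20.2 FPKM and SWEET12 at 14.5 ± 1.82 and 15.2 ± 0.650 FPKM in WT and atino80-5.

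The tested genes with values most like those of SAG29 were AT3G01430 (distance 0.11), the RING-type ubiquitin ligase gene RDUF2 (0.11) and the floral repressor gene FLC (0.13). Each had its higher atino80-5 value in replicate 1, which follows from choosing them by likeness over the same libraries. RDUF2, for example, was at 10.5 and 11.7 FPKM in WT and at 40.8 and 23.5 FPKM in atino80-5. FLC, with a WT mean of 0.551 FPKM, reached the minimum level only through atino80-5.

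SEN1 (AT4G35770, chromosome 4), also named DIN1, encodes a rhodanese-type protein and rises in the dark and in senescing leaves. It was at 25.2 and 23.3 FPKM in WT and at 13.6 and 27.3 FPKM in atino80-5, so the mutant libraries lay on either side of WT and the groups overlapped. The log2 difference was -0.31 (SE 0.31, 95% interval -1.06 to 0.43, limma adjusted p = 0.533). Without atino80-5 replicate 2 it was -0.79, with an adjusted p of 0.00609 in a fit that called 39.1% of all genes, and without atino80-5 replicate 1 it was 0.16. In the same order of libraries, RBCS1A, a Rubisco small subunit gene, stood at 34644, 24951, 20628 and 36160 FPKM, also lowest in atino80-5 replicate 1. Of the 12 leaf photosynthesis markers, 5 were lowest in that library and 5 were highest in it.

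Other dark-inducible and sugar-starvation genes split. Of 7 with values, 6 were tested, with 1 raised, 1 lowered and 4 that did not pass (median log2 difference 0.02). DIN10, annotated to raffinose metabolism, rose 2.13-fold, from 63.8 ± 4.14 FPKM in WT to 136 ± 3.33 FPKM (SD, n = 2, limma adjusted p = 0.0224). DIN11, a dioxygenase gene, fell 6.09-fold, from 2.96 and 2.40 FPKM in WT to 0.446 and 0.434 FPKM in atino80-5 (limma adjusted p = 0.00847), and reached the minimum level only through WT. The asparagine synthetase gene ASN1, which darkness and low sugar induce and which was named after its values were seen, was at 9.16 ± 0.281 FPKM in WT and 9.72 ± 0.631 FPKM in atino80-5 and did not pass. The call of DIN10 ended without WT replicate 1 (adjusted p = 0.252), without WT replicate 2 (0.144) and after quantile normalisation (0.0515), and DIN10 overlaps a neighbour on the opposite strand.

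SAG101 (AT5G14930, chromosome 5) encodes a lipase-like protein that works with EDS1 in immunity triggered by TIR-type receptors. It was at 3.30 and 2.52 FPKM in WT, from 109 and 112 reads, and at 1.43 and 1.27 FPKM in atino80-5, from 37 and 40 reads. Both atino80-5 libraries lay below both WT libraries, and the WT mean was 2.16 times theirs, but the log2 difference of -0.73 did not pass (SE 0.16, 95% interval -1.13 to -0.33, limma adjusted p = 0.0605). The authors' deposited table also left it above the threshold, with a log2 fold change of -1.11 and an adjusted p of 0.0595. It passed in 4 of 12 alternatives: with libraries scaled to total reads (0.0243), with the replicate number as a block (0.0230) and without atino80-5 replicate 1 (0.0451) or replicate 2 (0.0247).

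EDS1 and PAD4 had log2 differences smaller in size than that of SAG101. EDS1, the shared partner, was at 7.08 and 6.65 FPKM in WT and at 5.17 and 5.24 FPKM in atino80-5 (log2 difference -0.34, limma adjusted p = 0.183). PAD4, which takes the place of SAG101 in the other EDS1 complex, was at 3.26 and 3.07 FPKM in WT and at 3.70 and 3.35 FPKM in atino80-5 (log2 difference 0.12, limma adjusted p = 0.608). Neither passed the test, and whether SAG101 differed more than EDS1 or PAD4 was not tested.

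**Figure D3:**
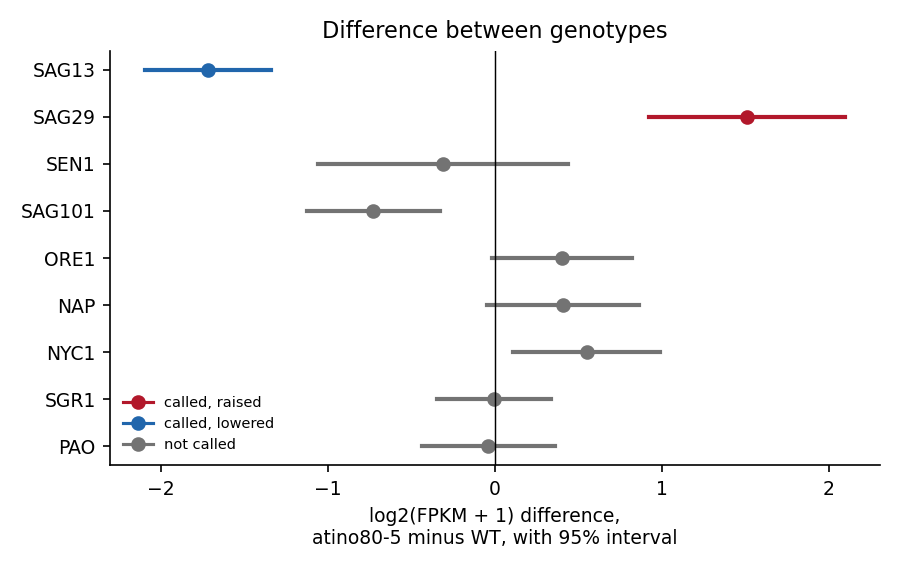
Log2(FPKM + 1) difference, atino80-5 minus WT, with limma's 95% interval, for the 9 genes. SAG13 at -1.72 and SAG29 at 1.51 are the called genes; the intervals of SAG101 and NYC1 leave out 0 before adjustment, and those of SGR1 and PAO are centred near 0.

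ORE1 (AT5G39610, chromosome 5) and NAP (AT1G69490, chromosome 1) encode NAC transcription factors that promote senescence, ORE1 downstream of ethylene signalling and NAP through abscisic acid and chlorophyll breakdown. ORE1 was at 7.89 and 6.89 FPKM in WT and at 8.87 and 11.4 FPKM in atino80-5. Its log2 difference was 0.40 (SE 0.17, 95% interval -0.02 to 0.82, limma adjusted p = 0.200). NAP was at 1.41 and 0.855 FPKM in WT and at 1.60 and 2.02 FPKM in atino80-5, from 22 to 37 reads a library, with a log2 difference of 0.41 (SE 0.19, 95% interval -0.05 to 0.86, limma adjusted p = 0.220). Both genes were higher in both atino80-5 libraries, as were 33.4% of tested genes, and neither passed in any of the alternatives tried.

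Among the other regulators of senescence, 4 of 16 tested genes rose, none fell and 12 did not pass, with a median log2 difference of -0.03. Over all tested genes, 2.99% were called as raised and 2.42% as lowered. The NAC genes ANAC055 and ANAC072, related to each other and induced by jasmonate and abscisic acid, rose most. ANAC055 went from 4.43 and 3.93 FPKM in WT to 19.0 and 19.3 FPKM in atino80-5 (log2 difference 1.96, SE 0.15, limma adjusted p = 0.00357). ANAC072 went from 10.8 and 8.87 FPKM to 45.0 and 37.3 FPKM (log2 difference 1.96, SE 0.18, limma adjusted p = 0.00523). ANAC019, the other gene of this clade, named after its values were seen, was at 4.36 and 4.68 FPKM in WT and at 4.46 and 5.65 FPKM in atino80-5 and did not pass (limma adjusted p = 0.633).

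The other calls were WRKY53, a transcription factor gene of early senescence, and MAX2 (ORE9), an F-box gene of strigolactone and karrikin signalling. WRKY53 rose from 0.833 and 0.896 FPKM to 2.39 and 3.13 FPKM (limma adjusted p = 0.0241), from 20 and 29 reads to 45 and 72 reads, reached the minimum level only through atino80-5, and overlaps a neighbour on the opposite strand. MAX2 rose 1.97-fold, from 10.3 ± 0.850 FPKM in WT to 20.2 ± 1.21 FPKM (SD, n = 2, limma adjusted p = 0.0266). The calls of both ended without WT replicate 1 (adjusted p = 0.0830 for WRKY53 and 0.252 for MAX2) or WT replicate 2 (0.0509 and 0.121). The ethylene signalling genes EIN2 and EIN3, which act ahead of ORE1, were at 11.6 ± 1.93 and 45.7 ± 1.55 FPKM in WT and at 10.5 ± 1.28 and 46.9 ± 2.44 FPKM in atino80-5 and did not pass. ORS1, the closest relative of ORE1, was at 10.8 ± 0.789 and 16.9 ± 4.29 FPKM (limma adjusted p = 0.141). WRKY75, named like EIN2, EIN3 and ORS1 after its values were seen, had 45 and 53 reads in WT and 7 and 18 in atino80-5, with an adjusted p of 0.0549.

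**Figure D4:**
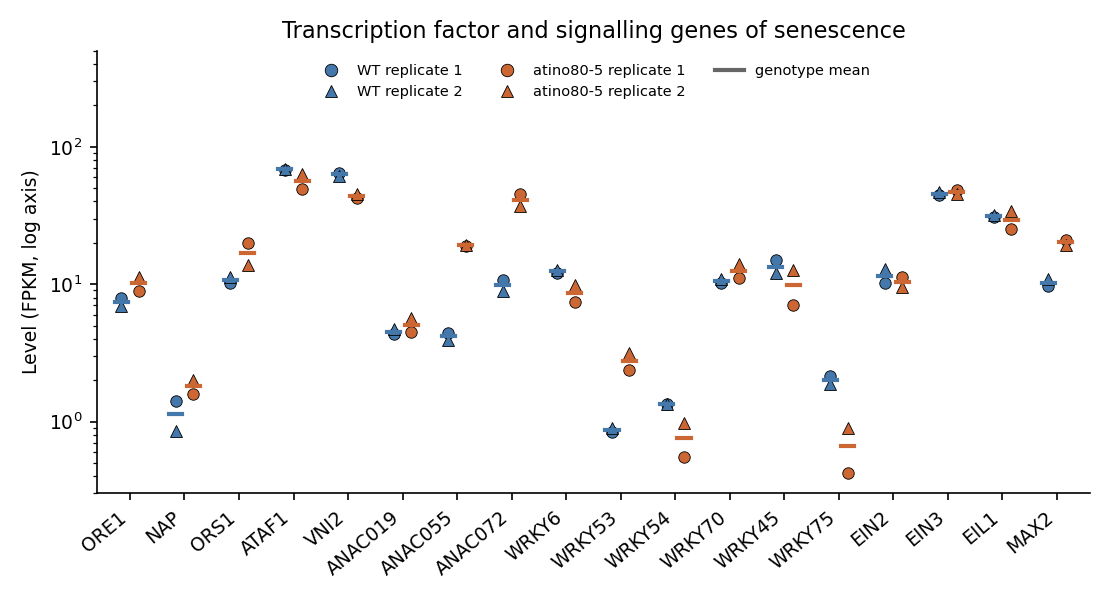
Level in each library, in FPKM on a log axis, of ORE1, NAP and 16 other tested regulator genes of senescence, with WT in blue, atino80-5 in orange, circles for replicate 1, triangles for replicate 2 and bars for the genotype means. ANAC055 and ANAC072 rose to about the level of MAX2 and above it, while ANAC019 stood between 4.36 and 5.65 FPKM.

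The 3 chlorophyll breakdown genes did not pass the test. NYC1 (AT4G13250, chromosome 4), the chlorophyll b reductase that starts the pathway for chlorophyll b, was at 56.8 and 68.6 FPKM in WT and at 94.0 and 89.5 FPKM in atino80-5. Both mutant libraries were above both WT libraries, with a log2 difference of 0.55 (SE 0.18, 95% interval 0.11 to 0.99, limma adjusted p = 0.129). The authors' deposited table gave it a log2 fold change of 0.55 and an adjusted p of 0.0716. It passed in 1 of 13 alternatives, without atino80-5 replicate 2 (adjusted p = 0.0318), where 39.1% of all genes were called.

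SGR1 (AT4G22920, chromosome 4), the magnesium dechelatase whose loss keeps leaves green, was at 4.41 and 4.66 FPKM in WT and at 4.70 and 4.31 FPKM in atino80-5. The groups overlapped fully, and the log2 difference was -0.01 (SE 0.14, 95% interval -0.35 to 0.33, limma adjusted p = 0.976). PAO (AT3G44880, chromosome 3), the pheophorbide a oxygenase that opens the ring, was at 42.1 and 40.3 FPKM in WT and at 37.5 and 42.6 FPKM in atino80-5. Its log2 difference was -0.04 (SE 0.16, 95% interval -0.44 to 0.36, limma adjusted p = 0.886). PAO overlaps AT3G44870 on the same strand, which had between 1 and 5 reads a library against between 1191 and 2196 for PAO.

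The rest of the pathway gave no call either. Of the 11 other chlorophyll breakdown genes, all were tested and 0 passed in limma, 3 had an unadjusted p under 0.05, 0 were called in the authors' deposited table, and the median log2 difference was -0.10. Such an unadjusted limma p was common: 4761 of all 17642 tested genes had one. The genes next named, up to PPH, were chosen after their values were seen. NOL, the partner of NYC1, was at 5.26 ± 0.329 FPKM in WT and 4.92 ± 1.42 FPKM in atino80-5 (SD, n = 2), and its groups overlapped. The next enzymes, HCAR, which completes the conversion to chlorophyll a, and PPH, the pheophytinase, were at 8.32 ± 0.156 and 19.6 ± 1.36 FPKM in WT and at 7.83 ± 0.515 and 23.6 ± 2.79 FPKM in atino80-5. After PAO come RCCR, which reduces the opened ring, and TIC55, which hydroxylates the product. RCCR was at 88.9 ± 16.3 and 67.4 ± 6.25 FPKM and TIC55 at 85.9 ± 4.52 and 88.5 ± 8.73 FPKM in WT and atino80-5. RCCR overlaps a neighbour on the same strand, and TIC55 overlaps neighbours on the opposite strand.

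The 3 genes with an unadjusted p under 0.05, named after their values were seen, were SGRL, CLH1 and CLH2. SGRL, a relative of SGR1, was at 45.7 and 39.4 FPKM in WT and at 16.6 and 32.8 FPKM in atino80-5 (limma adjusted p = 0.159). The chlorophyllase genes CLH1 and CLH2 leaned in opposite directions, at 1.54 times and 0.559 times the WT mean, with adjusted p-values of 0.155 and 0.0739.

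**Figure D5:**
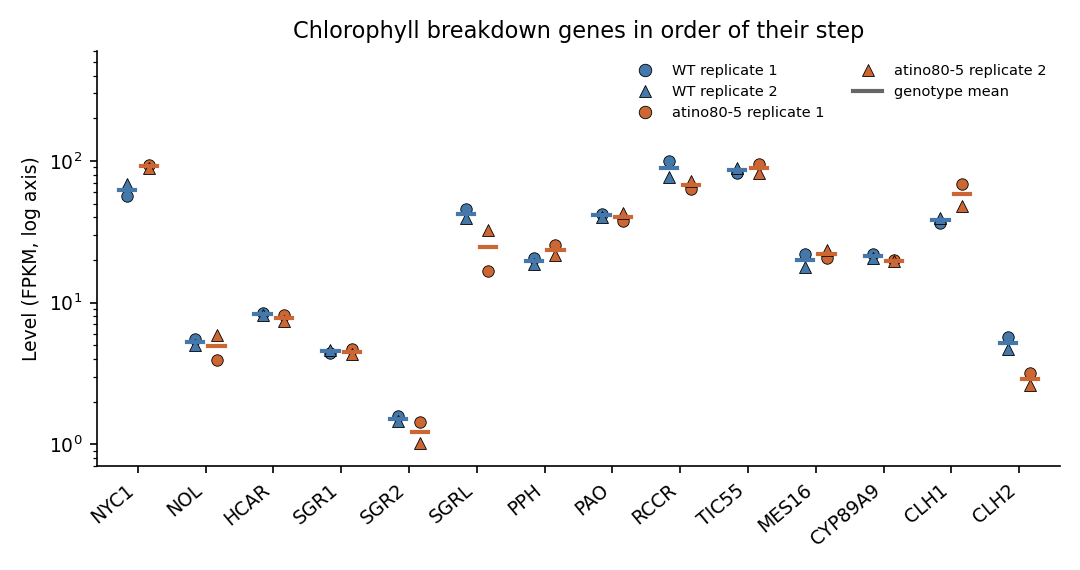
Level in each library, in FPKM on a log axis, of NYC1, SGR1, PAO and 11 other chlorophyll breakdown genes, ordered by step with the chlorophyllase genes CLH1 and CLH2 last; colours, symbols and bars as for the other level plots (WT blue, atino80-5 orange, circles replicate 1, triangles replicate 2). None passed the test, and the levels run from 1.02 FPKM for SGR2 to 100.4 FPKM for RCCR.

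On the synthesis side, 1 of 14 chlorophyll synthesis genes fell, none rose and 13 did not pass, with a median log2 difference of 0.22. PORA, the protochlorophyllide oxidoreductase of dark-grown seedlings, fell 4.93-fold, from 2.23 and 2.33 FPKM in WT to 0.630 and 0.295 FPKM in atino80-5 (63 and 89 reads against 14 and 8, limma adjusted p = 0.0180), and reached the minimum level only through WT. The abundant forms PORB and PORC were at 503 ± 12.7 and 86.9 ± 4.63 FPKM in WT and at 480 ± 14.6 and 82.5 ± 9.48 FPKM in atino80-5 and did not pass. CAO, which makes the chlorophyll b that NYC1 converts back, was at 27.6 and 28.3 FPKM in WT and at 15.8 and 19.1 FPKM in atino80-5, lower in both mutant libraries (limma adjusted p = 0.0783). The authors' deposited table called 3 genes of this list higher, GSA1 (adjusted p = 0.00957), CHLM (0.0158) and DVR (0.00187). It called 3 lower, PORA (0.00111), GUN4 (0.0113) and CAO (0.0274). Of all its genes with an adjusted p, 5.85% were called raised and 3.65% lowered. PORB, PORC, CAO, GSA1, CHLM, DVR and GUN4 were named after their values were seen.

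Other senescence-associated and remobilisation genes gave 0 calls among 14 tested in limma, with 3 at an unadjusted p under 0.05, 2 called higher in the authors' deposited table and a median log2 difference of 0.12. RD21A, a vacuolar cysteine protease gene, was at 222 ± 33.2 FPKM in WT and 281 ± 24.4 FPKM in atino80-5 (SD, n = 2). SAG21, a late embryogenesis abundant gene of oxidative stress, was at 163 and 107 FPKM in WT and at 410 and 199 FPKM in atino80-5, higher in both mutant libraries with a wide spread (limma adjusted p = 0.141, and 0.00468 without atino80-5 replicate 2). SAG20, named after its values were seen, was at 57.5 and 67.6 FPKM in WT and at 294 and 118 FPKM in atino80-5 (limma adjusted p = 0.0850). Both SAG20 and SAG21 were highest in atino80-5 replicate 1, as SAG29 was.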

How the data were processed

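Per the file headers, the authors deposited a table of 23174 genes with an FPKM value per library, and the output of their DESeq2 test: a mean normalised signal, a log2 fold change and its error, a score, and a p-value raw and adjusted. Per the submitters' processing notes, the tools were FastQC and cutadapt, then HISAT2 on the TAIR10 genome, SAMtools, featureCounts and DESeq2, beside deepTools; versions, annotation release and strand setting do not appear in the sources used here. FPKM and the mean signal together gave whole reads in 100% of 92696 values (tolerance 0.01). The library scaling behind the FPKM was a size factor, 0.9995 and 1.3479 for the WT libraries and 0.7849 and 0.9574 for the atino80-5 libraries. The length behind the FPKM had a median ratio of 0.940 to the reference gene span and 1.19 to its exon length.

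The test, limma 3.58.1 (R 4.3.3) with a trend on mean level, took log2(FPKM + 1) of the 17642 genes averaging 1 FPKM or more, and fitted genotype alone. The pseudocount of 1 understates changes of low genes; folds are ratios of mean FPKM. The code was first tested on simulated reads. Calls rest on spread shared between genes, because exact permutation of 2 against 2 libraries gives no two-sided p below 0.33. Alternatives were other pseudocounts, filters, scalings and fits, a replicate block, and leaving out each library.

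The 10 genes and the 11 other gene lists were chosen with earlier results of these data known, and no list test was made. The text names the 10 genes, every SAG13 neighbour, EDS1 and PAD4, up to 4 called genes of each list (or its 2 most abundant where none was called), and the 3 genes nearest in pattern to each called gene. Others are marked as named after their values were seen. Names, chromosomes and overlaps come from the RefSeq annotation of TAIR10.1, whose build name differs from that of the files, so no coordinates are printed. Overlaps are not stated for every gene. For example, SAG21 and AT2G29290 overlap a neighbour on the same strand, and INO80 and CAO overlap one on the opposite strand. By name, 134 of 138 loci matched; the other 4 (SGRL, DVR and both VPE genes) carry another symbol there.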

Additional observations from a re-analysis of the deposited data

How the results depend on the processing

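SAG13 kept its fall in all 12 alternatives in which it was tested, with log2 differences from -2.54 to -0.79 and limma adjusted p-values from 2.65e-05 to 0.0127, and SAG29 kept its rise in all 13, from 0.89 to 1.85 and from 0.000274 to 0.0467. The number of the 9 genes called was 1 of 5 at a minimum of 5 FPKM, which removed SAG13, and ran from 2 to 5 with 1 library left out, the 5 (SAG13, SAG29, SAG101, NYC1 and SEN1) without atino80-5 replicate 2. Over all genes, 955 calls became 572 at that minimum, 1617 with total-read scaling (484 raised and 1133 lowered, against 528 and 427; the median log2 difference moved from 0.03 to -0.155), 1985 with the replicate block, and with 1 library left out 443 (WT replicate 1), 587 (WT replicate 2), 1561 (atino80-5 replicate 1) or 6896 (atino80-5 replicate 2) (fits in which the lone library is assumed to vary like the others).

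The replicate numbers share only a label. Differences between replicates correlated at r = -0.034 between genotypes over 17642 genes, and the replicate block moved the calls of the 9 genes from 2 to 3 by adding SAG101. Genes that were not called changed sign under some alternatives, including LHCB1.3, RD21A and SEN1, whose log2 differences were 0.51, 0.34 and -0.31: SGR1 (0.0284 after quantile normalisation, -0.0578 to 0.0426 with 1 library left out), PAO (-0.13 to 0.0489), SEN1 (-0.79 to 0.16), AT2G29290 (-0.1193 to 0.0526), TIC55 (-0.27 after quantile normalisation, -0.18 with total-read scaling, -0.0591 to 0.14) and RBCS1A (-0.5112 to 0.30) with 1 library left out, AT2G29320 (-0.13) and PAD4 (-0.05) with total-read scaling, and RD21A (-0.0478) and LHCB1.3 (-0.0935) after quantile normalisation. The cause of these changes was not tested. Genes of under 50 reads a library, such as SAG13 in atino80-5 and NAP, are limited by depth.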
